A study of Mus musculus with 7 samples.

Results

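The genes described here carry out the breakdown of fatty acids in mitochondria and peroxisomes. The set was a named list of 41 genes, and its members were all probes of the array that carry one of these 41 gene names, which gave 52 of 55681 probes. Of these, 51 probes were bright enough to be tested, and every one of the 41 genes had at least 1 tested probe, out of 18770 genes tested in all. Each gene was read from the brightest of its tested probes.

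RNA of whole liver from untreated C57BL/6J mice, all 4 weeks old, was measured on Agilent one-colour arrays, 1 per animal. All animals carried the floxed *Rbpj* allele. The Rbpj-/- group consisted of 3 *AlfpCre*+ mice (labelled Rbpj -/-_N3, Rbpj -/-_N5 and Rbpj -/-_2866), whose livers were cholestatic by their labels, and the Rbpj+/+ group of 4 *AlfpCre*- mice (labelled Rbpj +/+_1155 and, in the same form, +/+_1156, +/+_1024 and +/+_991) without cholestasis. *Alfp* drives Cre in the epithelial lineages of the liver, so blood, vessel and stromal cells keep the allele intact. Animals are named by the end of their labels (+/+_1155, -/-_N3), and values of single animals are given in this order throughout. *Rbpj* encodes the DNA-binding partner of the Notch receptors. Values are log2 intensities after subtraction of the 75th percentile of each array, so 0 is the level of that percentile. *Rbpj* itself was at 0.97, 0.29, 0.33 and 0.81 in the Rbpj+/+ animals and at -0.35, -0.78 and -0.48 in the Rbpj-/- animals. The groups did not overlap, and the fall by 1.13 on the log2 scale passed the test (SE 0.24, adjusted p = 0.0115), though not without the filter on dim probes (adjusted p = 0.108). The deleted exons were not given in the sources used here, so the probe may lie outside them.

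Fatty acids are first joined to coenzyme A, and long-chain acyl groups then enter mitochondria on carnitine. Each turn of beta-oxidation removes acetyl-CoA by dehydrogenation, hydration, a second dehydrogenation and thiolysis, and electrons pass on through the electron transfer flavoprotein. Peroxisomes shorten very long and branched chains with their own enzymes and hand the products to mitochondria. In liver much of the acetyl-CoA becomes ketone bodies, and the nuclear receptor PPARalpha induces many of these genes during fasting.

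For isozymes that moved in opposite directions, the stretch of transcript that was read decides what a value stands for. The first 30 of the 60 bases of these probes, as deposited, were the following, 5′ to 3′.
Acsl1: gcctaacttcatactcgtattcttaattgc
Acsl4: cacgattgtaggattgttccttagattttt
Acot1: tctatggaaactggagctatccaagaaaag
Acot2: ggggaaacctcatatatattatcacaatgt
In the coordinates of the array design, whose build the files do not name, the Acsl1 probe lay at chr8:47621232-47621291, the Acsl4 probe at chrX:138752591-138752650, the Acot1 probe at chr12:85358561-85358620 and the Acot2 probe at chr12:85334071-85334130. The exon or UTR under each probe was not determined here. The longest identical run was 5 bases between the *Acsl1* and *Acsl4* probes and 6 bases between the *Acot1* and *Acot2* probes. Each run compares probe with probe, and no probe was compared with the transcript of the other gene. The runs therefore do not show whether a probe also reads its paralog, and cross-hybridisation was not tested.

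At a threshold of 0.1 on the adjusted p, 11 of the 41 genes were lower in Rbpj-/- liver, 2 were higher and 28 did not pass. Over all genes tested, 34.2% passed in either direction, 19.6% lower and 14.6% higher. The members' shares were 31.7% in either direction, 26.8% lower and 4.88% higher, so at this threshold the share that passed was close to that of all genes. At a threshold of 0.05 the same 13 members passed (31.7%, and 26.8% lower), against 23.6% of all genes, and 12.7% lower. The members had a median log2 fold change of -0.36, against -0.13 for all genes tested. A fold change below 0 was measured for 32 of the 41 members, which is 78.0%, and for 57.8% of all genes. The values of both groups were fully separated for 11 members in the lower direction and 2 in the higher, and these were the genes that passed. Over all genes, 21.2% were separated in the lower and 15.4% in the higher direction. The genes lower in Rbpj-/- liver were *Acsl1*, *Acot1*, *Decr2*, *Eci1*, *Bdh1*, *Etfb*, *Cpt2*, *Hsd17b4*, *Acadvl*, *Eci2* and *Acot8*, and the genes higher were *Acot2* and *Acsl4*. Of these 13 genes, 7 differed at least 2-fold. *Acot2* entered the test only through its Rbpj-/- arrays, as described below.

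**Figure D1:**
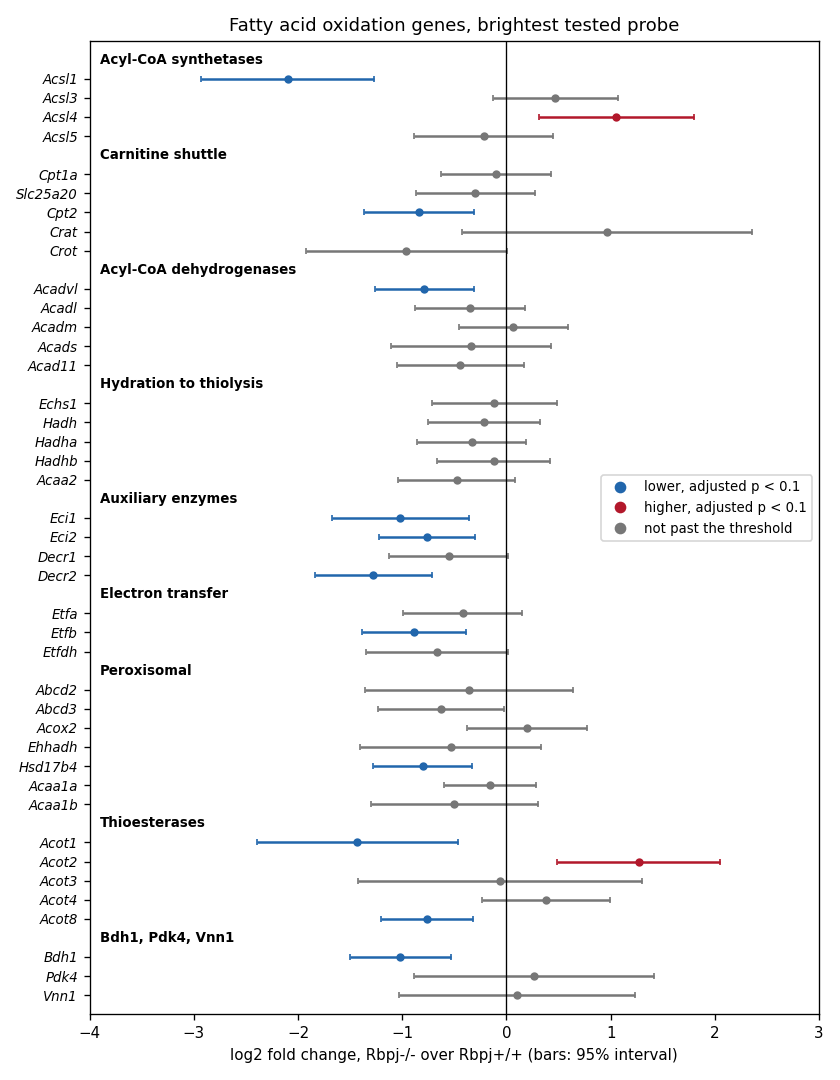
Log2 fold change of each of the 41 genes (x axis) with its 95% interval from limma, grouped by role. Blue marks the 11 genes that were lower, red the 2 that were higher and grey the 28 that did not pass; *Acsl1* at -2.10 lies furthest from 0.

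Of the 4 acyl-CoA synthetases, which activate long-chain fatty acids, 1 was lower, 1 was higher and 2 did not pass. *Acsl1*, the main long-chain synthetase of liver, was at 8.13, 7.87, 8.52 and 8.55 in Rbpj+/+ liver and at 5.53, 5.88 and 7.09 in Rbpj-/- liver. The groups did not overlap, and -/-_2866 was the Rbpj-/- animal nearest to Rbpj+/+ liver. The fall by 2.10 on the log2 scale was a 4.28-fold difference (SE 0.37, adjusted p = 0.00602), and the other probe of the gene fell by 1.99 (adjusted p = 0.00709). *Acsl4*, which prefers arachidonic acid, was at 4.39, 3.67, 4.73 and 4.86 in Rbpj+/+ liver and at 5.41, 5.94 and 5.05 in Rbpj-/- liver. All Rbpj-/- animals lay above all Rbpj+/+ animals, by 1.05 on the log2 scale in the mean (SE 0.33, adjusted p = 0.0486). *Acsl3* differed by 0.47 (95% interval -0.13 to 1.07) and *Acsl5* by -0.22 (-0.88 to 0.45). In the same animal, the *Acsl4* value minus the *Acsl1* value was between -4.20 and -3.69 in Rbpj+/+ liver, while it was -0.12 in -/-_N3, 0.06 in -/-_N5 and -2.04 in -/-_2866. This pair was chosen after the values were seen and was not tested, and since the probes differ in brightness only the change of this difference between animals can be read.

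Of the 5 genes of the carnitine shuttle, 1 was lower and 4 did not pass. *Cpt1a*, the rate-limiting carnitine palmitoyltransferase of the outer membrane, was at 6.24, 5.38, 5.68 and 5.70 in Rbpj+/+ liver and at 5.50, 5.66 and 5.79 in Rbpj-/- liver. These ranges lay within each other, and the difference was -0.10 with a 95% interval of -0.63 to 0.43, so that a fall of more than 0.63 on the log2 scale lay outside the interval. Its dimmer probe gave -0.05. *Cpt2*, which releases the acyl group inside the mitochondrion, was at 5.67, 5.47, 5.75 and 5.83 against 4.77, 4.47 and 5.29, again without overlap. It fell by 0.84 (SE 0.23, adjusted p = 0.0324), while a much dimmer probe of the gene differed by 0.52 in the other direction without passing (adjusted p = 0.389), and with the mean of both probes the gene no longer passed (adjusted p = 0.708). The carnitine-acylcarnitine carrier *Slc25a20* differed by -0.30 (95% interval -0.87 to 0.27). *Crot*, which forms carnitine esters in peroxisomes, was at 5.18 in -/-_N3, 4.44 in -/-_N5 and 6.18 in -/-_2866 against 5.60 to 6.66 in Rbpj+/+ liver, and its difference of -0.96 did not pass (adjusted p = 0.131). *Crat*, the carnitine acetyltransferase, was well above background on only 1 Rbpj+/+ array, but on each of the 3 Rbpj-/- arrays, and its difference of 0.97 did not pass (adjusted p = 0.279).

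Of the 5 acyl-CoA dehydrogenases, only *Acadvl* passed. *Acadvl*, which opens the oxidation of very long chains, was at 7.86, 7.56, 7.88 and 7.74 in Rbpj+/+ liver and at 6.72, 6.87 and 7.33 in Rbpj-/- liver. It fell by 0.79 without overlap (SE 0.21, adjusted p = 0.0288). The other acyl-CoA dehydrogenases differed less from 0 than *Acadvl*, although the differences between members were not tested. The long-chain enzyme *Acadl* differed by -0.35 (adjusted p = 0.304), the short-chain enzyme *Acads* by -0.34 (adjusted p = 0.484) and *Acad11* by -0.44 (adjusted p = 0.258). The medium-chain enzyme *Acadm* was at 5.74 to 6.52 in Rbpj+/+ and 6.11 to 6.50 in Rbpj-/- liver, a difference of 0.07 with a 95% interval of -0.46 to 0.59. The array design places that probe on chromosome 11, while RefSeq places the gene on chromosome 3, so what it reads is uncertain.

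None of the 5 genes of hydration, the second dehydrogenation and thiolysis passed, either by limma's adjusted p or at an unadjusted p below 0.05, where the count was 0 as well. The alpha and beta subunits of the mitochondrial trifunctional protein, *Hadha* and *Hadhb*, differed by -0.33 (95% interval -0.86 to 0.19) and -0.12 (-0.67 to 0.42). The hydratase *Echs1* differed by -0.12 (-0.71 to 0.48) and the dehydrogenase *Hadh* by -0.22 (-0.76 to 0.32). The thiolase *Acaa2* differed by -0.48 (-1.04 to 0.08). All 5 values lay below 0, and every interval included 0.

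The auxiliary enzymes, which prepare unsaturated fatty acids for the beta-oxidation cycle, held 3 lower genes of 4, where 19.6% of all genes tested were lower. *Decr2*, the peroxisomal 2,4-dienoyl-CoA reductase, was at 5.28, 5.74, 5.75 and 5.41 in Rbpj+/+ liver and at 4.05, 3.99 and 4.76 in Rbpj-/- liver. The groups were separated, and the fall by 1.28 was a 2.43-fold difference (SE 0.25, adjusted p = 0.00894). The mitochondrial enoyl-CoA isomerase *Eci1* was at 6.08, 5.70, 6.38 and 6.30 against 4.61, 4.98 and 5.69. The highest Rbpj-/- animal, -/-_2866, lay just below the lowest Rbpj+/+ animal, +/+_1156, and *Eci1* fell by 1.02 (SE 0.29, adjusted p = 0.036). *Eci2*, the isomerase found in peroxisomes and mitochondria, was at 6.95, 6.46, 6.52 and 6.35 against 5.69, 5.85 and 5.87, with little spread between the Rbpj-/- animals. It fell by 0.77 (SE 0.20, adjusted p = 0.0279). *Decr1*, the mitochondrial reductase, did not pass by its brighter probe (-0.55, adjusted p = 0.141) and passed by its dimmer one (-1.06, adjusted p = 0.0607).

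**Figure D2:**
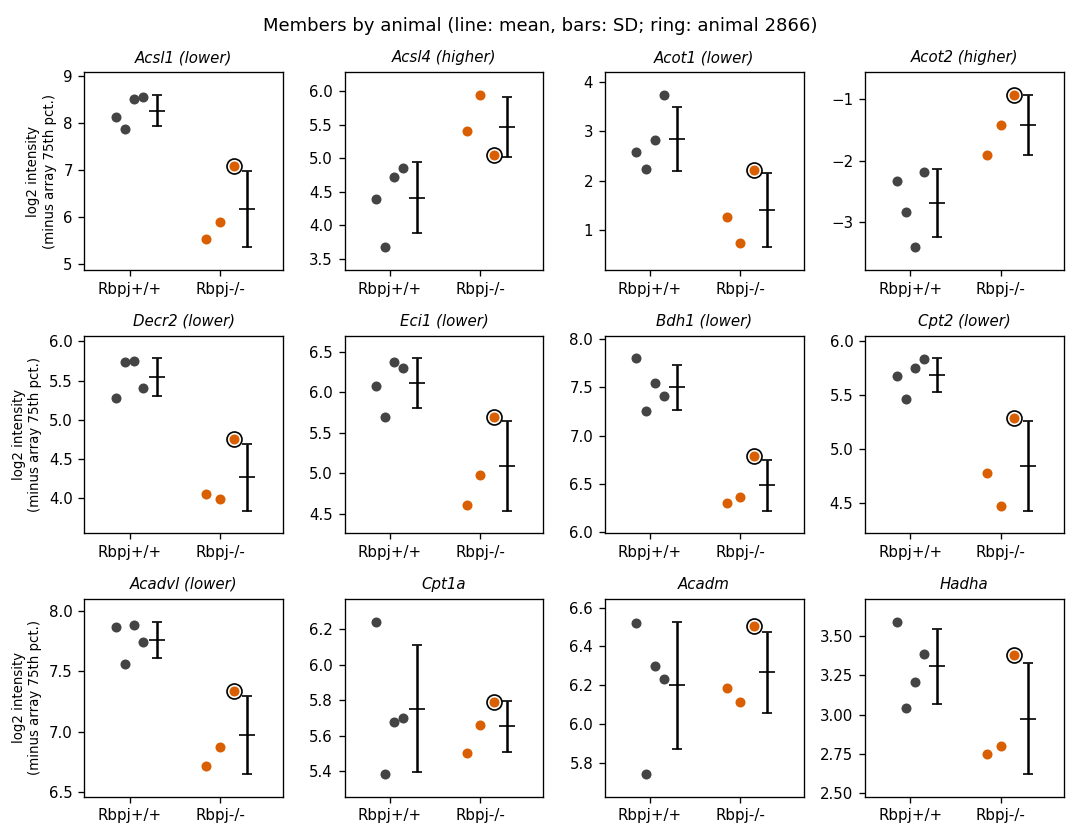
Log2 intensity minus the 75th percentile of the array (y axis, scaled per gene) of 12 genes in the 4 Rbpj+/+ and 3 Rbpj-/- animals; dots are animals, the line and bars give mean and SD, and the ring marks animal -/-_2866. In the 9 genes marked lower or higher the groups are separated, while *Cpt1a*, *Acadm* and *Hadha* overlap.

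The electron transfer genes pass electrons from the acyl-CoA dehydrogenases to the respiratory chain. *Etfb*, the beta subunit of the flavoprotein, was at 8.67, 8.48, 8.94 and 8.83 in Rbpj+/+ liver and at 7.57, 7.74 and 8.20 in Rbpj-/- liver. It fell by 0.89 without overlap (SE 0.22, adjusted p = 0.0217), and of its 2 dimmer probes 1 passed in the same direction (-0.72, adjusted p = 0.0682) and 1 did not (-0.44, adjusted p = 0.181). The alpha subunit *Etfa* differed by -0.42 (adjusted p = 0.254), and a second probe under that name, which the design places on chromosome 1 while the gene lies on chromosome 9, differed by 0.46 (adjusted p = 0.353). The ubiquinone oxidoreductase *Etfdh* differed by -0.67 without passing (adjusted p = 0.138).

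Of the 7 peroxisomal members, 1 passed. *Hsd17b4*, the D-bifunctional protein that hydrates and dehydrogenates very long and branched chains, was at 7.37, 7.20, 7.56 and 7.59 against 6.48, 6.44 and 6.96. It fell by 0.80 without overlap (SE 0.21, adjusted p = 0.0265). *Ehhadh*, the L-bifunctional protein and a known PPARalpha target, was at 3.37 in -/-_N3, 3.82 in -/-_N5 and 4.88 in -/-_2866 against 3.94 to 5.01 in Rbpj+/+ liver. Its difference of -0.53 had a 95% interval of -1.40 to 0.33. The thiolases *Acaa1a* and *Acaa1b*, close paralogs whose signals may mix, differed by -0.16 (adjusted p = 0.582) and -0.50 (adjusted p = 0.33). The membrane transporter *Abcd3* differed by -0.63 (adjusted p = 0.119), and its relative *Abcd2* by -0.36 (adjusted p = 0.581). *Acox2*, the oxidase of branched chains and bile acid intermediates, differed by 0.20 (95% interval -0.38 to 0.78).

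The acyl-CoA thioesterases release free fatty acids from coenzyme A, and of 5 members 2 were lower, 1 was higher and 2 did not pass. *Acot1*, the cytosolic enzyme, was at 2.59, 2.23, 2.83 and 3.73 in Rbpj+/+ liver and at 1.28, 0.73 and 2.23 in Rbpj-/- liver. The groups met without overlap, as -/-_2866 and +/+_1156 were both at 2.23 after rounding, and *Acot1* fell by 1.43 (SE 0.43, adjusted p = 0.0415). *Acot2*, its mitochondrial neighbour, was at -2.33, -2.84, -3.42 and -2.18 against -1.91, -1.42 and -0.93, and it passed the background limit on 3 of 4 Rbpj+/+ arrays and on every Rbpj-/- array. It therefore entered the test only through the Rbpj-/- arrays, the group where it was higher. *Acot2* was higher by 1.27 (SE 0.35, adjusted p = 0.0305). This call was lost with normexp background correction, with quantile normalization and in the authors' processed values, so the dim signal of this gene depends on the processing. It was also lost without -/-_2866 (adjusted p = 0.103). Where detection on all 7 arrays was required, *Acot2* was not tested. The *Acot2* value minus the *Acot1* value lay between -6.24 and -4.92 in Rbpj+/+ and between -3.19 and -2.15 in Rbpj-/- liver, again a pair chosen after the values were seen and not tested. The peroxisomal *Acot8* was at 3.0, 2.71, 2.78 and 2.96 against 2.08, 1.86 and 2.36. It fell by 0.76 (SE 0.20, adjusted p = 0.0252), while its dimmer probe differed by -0.29 without passing, and the mean of both probes did not pass. *Acot3* was at -3.08 in -/-_N3, -2.23 in -/-_N5 and -0.31 in -/-_2866, a wider spread than the -2.37 to -0.97 of the Rbpj+/+ group, and differed by -0.06 (95% interval -1.43 to 1.30). *Acot4* differed by 0.38 (-0.24 to 0.99).

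The last 3 members belong to the use of the products and of coenzyme A. *Bdh1*, the mitochondrial enzyme that forms 3-hydroxybutyrate, was at 7.80, 7.25, 7.54 and 7.41 in Rbpj+/+ liver and at 6.31, 6.36 and 6.78 in Rbpj-/- liver. It fell by 1.02, a 2.02-fold difference (SE 0.21, adjusted p = 0.0121), and of its 2 other probes 1 passed (-0.98, adjusted p = 0.013) and the dimmest did not (-0.41, adjusted p = 0.424). *Pdk4*, a kinase that turns off pyruvate dehydrogenase when fat is burned, was at 0.36, 0.36 and 0.07 in +/+_1155, +/+_1156 and +/+_1024 and at 2.35 in +/+_991, against 0.67, 1.24 and 1.23 in Rbpj-/- liver. Its difference of 0.26 had a 95% interval of -0.89 to 1.41, and it was set by the single Rbpj+/+ animal, since without +/+_991 *Pdk4* was higher by 0.78 and passed (adjusted p = 0.0667). *Vnn1*, the pantetheinase that recycles a precursor of coenzyme A, differed by 0.10 (95% interval -1.04 to 1.24).

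Across animals, the members did not move by equal amounts. Measured from the Rbpj+/+ mean of each gene, the median over the 41 members was -0.78 in -/-_N3, -0.51 in -/-_N5 and 0.02 in -/-_2866. In -/-_2866, 20 of 41 members lay below the Rbpj+/+ mean, against 36 in -/-_N3 and 33 in -/-_N5. The highest Rbpj-/- value of a member was that of -/-_2866 for 34 of 41 genes, and for all 11 genes that were lower. Over those 11 genes the median was -1.16 in -/-_N3, -1.13 in -/-_N5 and -0.52 in -/-_2866. Without -/-_2866, 17 members were lower (41.5%, against 15.5% of all genes tested) and 1 was higher. Without -/-_N5 only 5 members were lower (12.2%, against 9.85% of all genes). Over all genes, the lower calls went from 3671 with all animals to 1876 without -/-_N5. Of the 13 genes that passed with all animals, 12 also passed without -/-_2866, 9 without -/-_N3 and 6 without -/-_N5. Among the Rbpj+/+ animals, +/+_1156 was the lowest for 32 of 41 members, with a median of -0.37. The hepatocyte markers described below also had a median below 0 in +/+_1156, at -0.22. Lowest and highest animals were not counted over all genes, so whether these positions are particular to the members was not tested. Without +/+_1156, 17 members were lower (41.5%, against 23.2% of all genes).

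**Figure D3:**
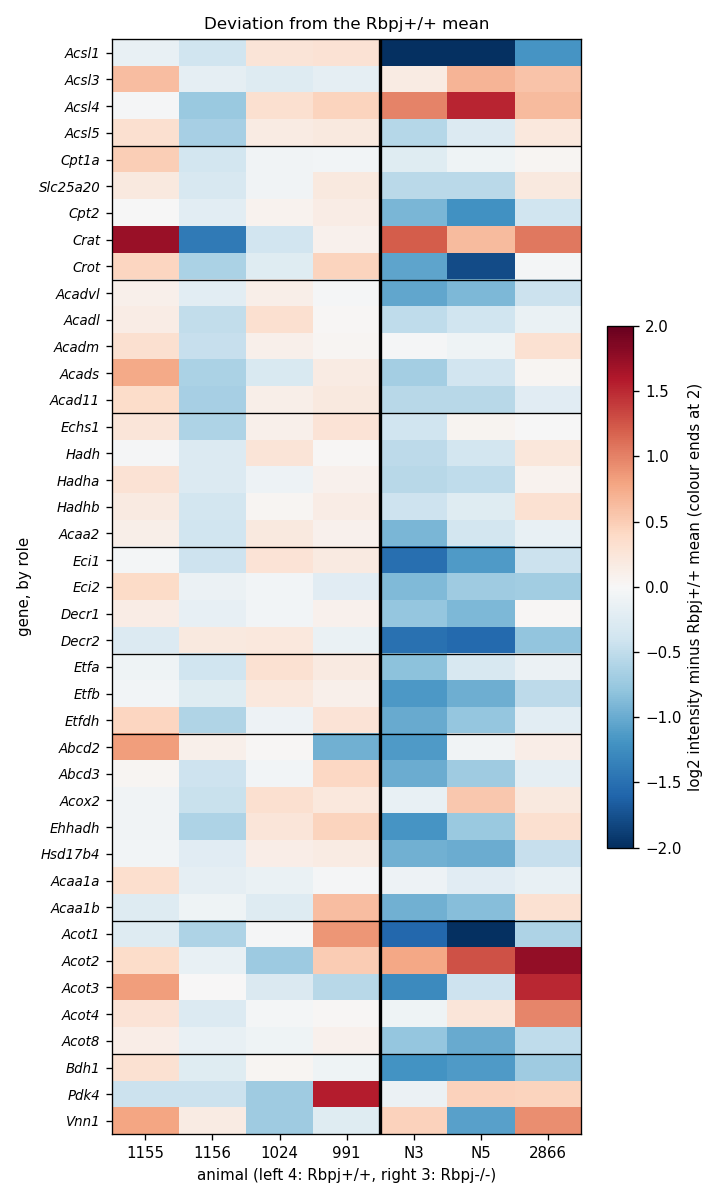
Deviation of each of the 41 genes (rows, ordered by role, black lines between roles) from its Rbpj+/+ mean in each of the 7 animals (columns), in log2 units; blue is lower and red higher. Columns -/-_N3 and -/-_N5 are mostly blue, while -/-_2866 is paler, with 20 of 41 genes below the Rbpj+/+ mean.

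The arrays differed in how bright dim probes were. The share of probes well above background was 61.8% on array +/+_1156 and 64.9% on array -/-_N3 and between 41.1% and 47.7% on the other 5 arrays. Without both +/+_1156 and -/-_N3, 12 members were lower (29.3%, against 16.9% of all genes) and 1 was higher. Of the 13 genes, 12 were shared and *Acsl4* was lost. The 75th percentile that was subtracted was 57.5 to 103 intensity units on the Rbpj+/+ arrays and 118 to 143 on the Rbpj-/- arrays. The Rbpj+/+ arrays lay in row 1 and the Rbpj-/- arrays in row 2 of a single slide, so row and genotype cannot be told apart.

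Markers of liver cell types also differed between the genotypes, in both directions. In whole liver, fewer cells of a type and less RNA per cell cannot be told apart. Of 27 hepatocyte markers tested, 16 were lower and 0 higher (limma, with 0 also at an unadjusted p below 0.05), their median log2 fold change was -0.59, and albumin (*Alb*) fell by 0.78 (SE 0.18, adjusted p = 0.0167). The summed hepatocyte marker level, in multiples of the 75th percentile of the array, was 12941 to 17983 in Rbpj+/+ and 9517 to 10873 in Rbpj-/- liver, without overlap. The summed level of the 41 members was 3014 to 4164 against 2080 to 3183, where -/-_2866 reached into the Rbpj+/+ range. The median hepatocyte marker deviation was -0.62 in -/-_N3, -0.59 in -/-_N5 and -0.51 in -/-_2866, so the markers differed less between the Rbpj-/- animals than the members did. Of 10 macrophage markers 7 were higher and 1 was lower, with a summed level of 95.5 to 119 against 295 to 407, and *Adgre1* was higher by 1.66 (adjusted p = 0.00225). Of 9 stellate cell markers 7 were higher and 0 lower (limma), with sums of 43.7 to 68.5 against 94.0 to 151. Of 9 neutrophil markers 3 were higher and 1 lower (sums 6.37 to 25.5 against 34.1 to 71.8), and of 8 endothelial markers 3 were higher and 1 lower (60.6 to 88.4 against 105 to 156). Of 7 cholangiocyte markers 3 were higher and 0 lower (4.00 to 4.89 against 6.83 to 13.3), with *Krt19* at a difference of 0.25 that did not pass (adjusted p = 0.532). Of 8 lymphocyte markers 5 were lower and 1, *Ptprc*, was higher by 1.32 (adjusted p = 0.0127), with sums of 31.9 to 44.0 against 12.8 to 20.6. Of 6 erythroid markers 1 was lower, and the sums overlapped (249 to 602 against 117 to 494). None of 6 muscle and fat markers (*Ucp1*, *Adipoq*, *Lep*, *Ckm*, *Acta1* and *Myh7*) was bright enough to be tested. The part of the cell composition in the members' values was not tested.

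The genes that surround the pathway were read from further lists. Each count below stands beside all genes tested (19.6% lower, 14.6% higher) and the hepatocyte markers (59.3% lower). Whether a list differs from these shares was not tested. Of 37 other oxidation genes, 15 were lower and 5 higher, with a median of -0.41. *Nudt7*, a peroxisomal hydrolase of coenzyme A, was at 8.21, 7.47, 7.70 and 8.03 against 4.45, 4.06 and 5.40, and fell by 3.22 (SE 0.33, adjusted p = 0.000783). The medium-chain synthetase *Acsm2* was well above background on each Rbpj+/+ array but on 0 of 3 Rbpj-/- arrays, so only the Rbpj+/+ arrays brought it into the test. With the main processing it was at least 10.6-fold lower in Rbpj-/- liver (adjusted p = 7.12e-05). That bound sets the Rbpj+/+ mean against the lowest signal that counted as well above background, or the probe's own where higher, on each Rbpj-/- array. The thioesterase *Acot9* was higher by 1.85 (SE 0.25, adjusted p = 0.00221). With normexp background correction *Acsm2* fell by 1.55 on the log2 scale, and *Acot9* was higher by 1.12, and both still passed. The *Acsm2* fall was then smaller than the bound above, which holds for the main processing only.

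Of 7 genes of ketone body synthesis, use and transport, 4 were lower and 2 higher. *Bdh2*, a cytosolic hydroxybutyrate dehydrogenase, fell by 2.14 (SE 0.36, adjusted p = 0.00512). *Oxct1*, the enzyme of ketone body use that hepatocytes largely lack, was at 0.16, 0.26, 0.67 and 0.77 against 1.99, 1.78 and 1.71 and was higher by 1.36 (adjusted p = 0.00419).

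Of 24 regulators of the pathway, 12 were lower and 2 higher, with a median of -0.54. *Ppara*, the receptor that induces many of the members, was at 6.33, 6.22, 5.52 and 6.13 against 4.22, 4.67 and 5.08. It fell by 1.40 without overlap (SE 0.28, adjusted p = 0.00962). *Med1*, a coactivator subunit of the nuclear receptors, fell by 2.92 by its brightest probe (adjusted p = 0.000411), but by 0.77 in the mean of all its tested probes (adjusted p = 0.0153). *Acacb*, the carboxylase whose malonyl-CoA inhibits Cpt1, fell by 1.95 (adjusted p = 0.0314), a call that was lost without -/-_N3 (adjusted p = 0.108), without -/-_N5 (adjusted p = 0.117) and without the filter on dim probes (adjusted p = 0.185), and without -/-_2866 it fell by 2.55. *Fgf21*, a fasting hormone induced by PPARalpha, was at 5.54 and 3.64 in +/+_1155 and +/+_1156 and at 0.51 and -0.22 in +/+_1024 and +/+_991, against -3.24, -2.85 and -2.44 in Rbpj-/- liver. The SD of the Rbpj+/+ animals was 2.70 for *Fgf21*, against at most 1.31 (*Crat*) for a member, and the difference of -5.21 had an SE of 1.22 (adjusted p = 0.0177). *Fgf21* was well above background on only 2 of 3 Rbpj-/- arrays. Its difference was -3.36 with normexp background correction and -4.15 to -6.07 with 1 animal left out, and the call was lost without both +/+_1156 and -/-_N3 (-4.59, adjusted p = 0.107) and without the filter on dim probes (adjusted p = 0.131).

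Of 30 further PPARalpha targets, 7 of which also stand in another of the lists, 14 were lower and 6 higher, with a median of -0.70. The direction was not shared within this list. *Cd36*, a fatty acid transporter, was at 0.02, -0.12, 0.11 and 0.11 against 3.30, 3.28 and 3.70 and was higher by 3.40 (SE 0.19, adjusted p = 5.97e-05). *Cidea*, a lipid droplet protein, was well above background on none of the Rbpj+/+ arrays but on each of the Rbpj-/- arrays. It entered the test only through the Rbpj-/- arrays, the group where it was higher. With the main processing *Cidea* was at least 10.3-fold higher in Rbpj-/- liver (adjusted p = 0.00174). Normexp background correction gave a difference of 1.02 on the log2 scale, which passed but was smaller than that bound. Of 21 genes of peroxisome biogenesis and content, 9 were lower and 0 higher (limma, with 0 also at an unadjusted p below 0.05), with a median of -0.48. Catalase (*Cat*) fell by 1.38 (SE 0.33, adjusted p = 0.0202) and the division factor *Pex11a* by 1.09 (adjusted p = 0.0128), while the fall of the membrane protein *Pxmp4* by 1.10 (adjusted p = 0.0892) depended on the scaling and on single animals. Without the filter on dim probes, *Cat* and *Pex11a* did not pass (adjusted p = 0.145 and adjusted p = 0.115).

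**Figure D4:**
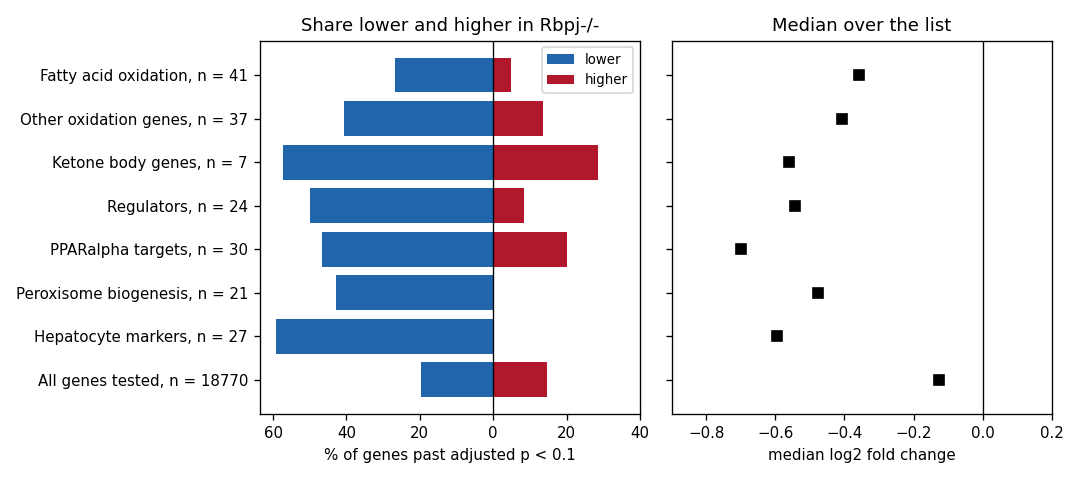
Left, percentage of genes lower (blue) and higher (red) in Rbpj-/- liver by the same threshold in each list, with the number of genes tested; right, the median log2 fold change of the list. The 41 fatty acid oxidation genes have 26.8% lower and 4.88% higher genes and a median of -0.36, and all genes tested 19.6%, 14.6% and -0.13.

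Promoters were examined because the members share regulators. RefSeq promoters (build GRCm38.p6, 250 bases before to 50 after a start site) were at hand for 35 of 41 members and 27025 genes in all. The element bound by PPARalpha with RXR was searched as AGGTCANAGGTCA, a direct repeat of AGGTCA with 1 base between, on both strands. With up to 1 mismatch it was found in 0 of 35 members. The share over all genes was not counted at that setting, so this 0 cannot be read as a trait of the members. With up to 2 mismatches it was found in 5 of 35 members (14.3%) and in 4.40% of all genes with a promoter. The 5 windows are printed because none of these 5 genes passed the test. Capitals mark the match, and each reads 5′ to 3′ on the strand of its gene.
Slc25a20: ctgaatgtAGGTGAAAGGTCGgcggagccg
Echs1: gcccgctcAGGTCACGGGTCCaccccttaa
Etfa: gcacacccTTACCTTTGCCCTactcccaag
Acox2: gctgtcccAGGACAGAGGTGAgtcaagagt
Acot4: ccgaagcaTGACCTTTGGCCGgtctgtgcc
They lie at chr9:108662134-108662163 (plus strand), chr7:140116483-140116512 (minus), chr9:55512299-55512328 (minus), chr14:8258809-8258838 (minus) and chr12:84038358-84038387 (plus), in that order.

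The core bound by RBPJ was searched as GTGGGAA on both strands without mismatches. It was found in 3 of 35 members (8.57%) and in 7.25% of all genes with a promoter. Of these 3, *Decr2* and *Bdh1* were lower in Rbpj-/- liver and *Pdk4* did not pass.
Decr2: cgcctggtcgaGTGGGAAgggctggaggct
Bdh1: tgtcagacttgtGTGGGAAttttcactccc
Pdk4: gacatcgggtgGTGGGAAgacccaagtgtc
These windows lie at chr17:26090276-26090305 (minus strand), chr16:31422317-31422346 (plus) and chr6:5496297-5496326 (minus), in that order. A match in these letters is a description of the window and does not show binding.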

How the data were processed

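Whole liver RNA of 4 Rbpj+/+ and 3 Rbpj-/- mice was measured on Agilent one-colour arrays. The authors deposited the scanner output of Agilent Feature Extraction (version 10.7.3.1 per the labels), in which intensity values are background-subtracted signals of single spots without normalization between arrays, together with quality flags, which are other values than intensities. The authors also deposited a series matrix of processed log2 values, used here as an alternative.

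Here, control spots and spots flagged as non-uniform or population outliers were left out (146 probe values), repeated spots of a probe were averaged after log2 transformation, and each array was shifted by its 75th percentile. No spot was saturated, and no value of a member was missing. Tested probes had the flags for positive, significant and well-above-background signal on every array of 1 or both genotypes. Genotypes were compared with limma 3.58.1 (lmFit and eBayes) in R 4.3.3. P-values were adjusted by Benjamini-Hochberg over all 24547 tested probes, and the threshold was 0.1. The methods name a shrinkage t statistic, which was not installed here, so limma's moderated statistic takes its place. Intervals are limma's at 95%. A gene was read from its brightest tested probe. The labels do not give litters, and precision is limited by the 7 arrays. The p-values set the genotype difference against the spread between these animals, which limma moderates over all tested probes.

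The members and all lists (other oxidation, ketone body, regulator, PPARalpha target, peroxisome, hepatocyte, cholangiocyte, macrophage, neutrophil, lymphocyte, stellate, endothelial, erythroid, and muscle and fat genes) were chosen with earlier results of these data known. Named genes are *Rbpj*, every member, the 3 tested genes of each pathway list with the largest change, *Ppara*, and *Alb*, *Krt19*, *Ptprc* and *Adgre1* among the markers. Some genes that the rule names are not reported here. The isozyme pairs were added after the values were seen.

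As alternatives, background was corrected by normexp (offset 50), arrays were quantile-normalized or scaled in 2 other ways, and further settings were no filter on dim probes, detection on all 7 arrays, flagged spots kept, an intensity trend, array weights, the series matrix, the mean of all tested probes of a gene, a threshold of 0.05, and each animal left out. Leaving out the arrays +/+_1156 and -/-_N3 together was added after seeing the data. The steps were tested on simulated data. Promoter sequences are from RefSeq (GRCm38.p6). Of 48 member probes whose design position is on the gene's RefSeq chromosome, only 8 starts lay inside the gene in GRCm38.p6, so the design uses another build. Tables were made in Python 3.11.15 with pandas 2.3.3, and figures with matplotlib 3.10.9.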

Additional observations from a re-analysis of the deposited data

Results flagged for a closer look

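In the Rbpj+/+ group of 4, the gap between 1 animal and its nearest neighbour was compared with the whole range of the group for each of the 41 members, and 3 members stood out. Chance flags about 1 in 20 such groups, and 3 of 41 is near that rate. *Pdk4* was at 2.35 in +/+_991 and between 0.07 and 0.36 in the other animals (gap over range 0.873). *Acsl3* was at 1.50 in +/+_1155 and between 0.62 and 0.70 in the others (0.911), and without +/+_1155 it was higher in Rbpj-/- liver by 0.67 and passed (limma, adjusted p = 0.0646). *Acsl5* was at 3.97 in +/+_1156 and between 4.80 and 4.96 in the others (0.843). The Rbpj-/- group of 3 was too small for this comparison.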

How the results depend on the processing

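No call of a member changed direction under any of the alternatives. *Acsl1* and *Decr2* passed under all 20 alternatives, with log2 fold changes from -2.56 to -1.78 and from -1.53 to -1.05 (adjusted p 0.00172 to 0.0718 and 0.00327 to 0.0930). Without a filter on dim probes, limma called 2 members lower and 0 higher (11 and 2 at an unadjusted p below 0.05), 674 genes lower and 968 higher of 35715 genes, 4 and 1 other oxidation genes, 1 higher ketone body gene, 3 and 0 regulators, 3 and 3 PPARalpha targets, and 0 lower peroxisome genes (6 at an unadjusted p below 0.05), and the cause was not tested. Array weights called 17 members lower (41.5%, against 25.5% of all genes). Normexp called 11 members lower (26.8%, against 23.2% of all genes). In either direction 31.7% of the members passed with normexp, fewer than the 41.4% of all genes. Detection on all 7 arrays, like leaving out +/+_1156 and -/-_N3 together, called 1 member higher. Quantile normalization and the series matrix both called 8 PPARalpha targets lower, and normexp 3 other oxidation genes higher. The threshold of 0.05 called 11 members, 2387 genes in all and 5 peroxisome genes lower. Leaving out 1 animal gave 5 to 17 members lower and 1 to 4 higher, and 1876 to 4368 genes lower. The median was then -0.57 to -0.22 over the members and -0.17 to -0.09 over all genes. Leaving out 1 animal also gave 7 to 18 other oxidation genes lower and 3 to 5 higher, 1 to 2 ketone body genes higher, 6 to 13 regulators lower and 1 to 3 higher, 7 to 16 PPARalpha targets lower, and 3 to 10 peroxisome genes lower. Without -/-_N5, *Acadvl*, *Acot1*, *Acot8*, *Acsl4*, *Cpt2*, *Eci1* and *Hsd17b4* no longer passed, and without -/-_N3 *Acadvl*, *Acot1*, *Acsl4* and *Eci1*. No paired analysis was possible because the labels give the genotypes no shared replicate numbers.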
